A study of Homo sapiens with 28 samples.

Results

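HuH7 tumours grown on the membrane of chick eggs (the chorioallantoic membrane) were compared with tumours of 3 other human liver cancer lines grown the same way, HepG2, Hep3B and PLC/PRF/5. The 4 libraries of HuH7 tumours are 4 of the 28 libraries of the series, and they were chosen by their labels alone. They were set against the mean of the other 3 tumour groups (4 libraries each, 12 in all), with each line weighted equally, and the comparison covers all genes. The same contrast between cultures (in vitro), with 3 HuH7 libraries and 9 of the other lines, shows which tumour differences were also found between cultures. In tumours, HuH7 had higher levels of the Nodal antagonists CER1, LEFTY1 and LEFTY2, of most of a list of TGF-beta and YAP targets and of the collagen COL1A1. It had lower levels of 13 of 24 secreted liver proteins and 14 of 23 genes of cholesterol synthesis and uptake, against 21.9% of all genes tested. Without PLC/PRF/5 the count of secreted proteins was 20, and without HuH7 tumours 3 and 4 the count of cholesterol genes was 7. For most of the cholesterol genes the order in culture was the other way round.

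HuH7, Hep3B and PLC/PRF/5 were derived from liver carcinomas and HepG2 from a hepatoblastoma, a liver tumour of childhood. Cells of each line were grafted at embryonic day 9 and the nodules removed at day 18. RNA of tumours was extracted with a midi column kit and RNA of cultures with a mini column kit, and each library was made from 500 ng. Kit and growth setting therefore cannot be told apart when tumours are set beside cultures. No genotype, treatment or sorted fraction is given in the labels, each line is a single line, and the labels do not say whether libraries come from separate eggs or separate cultures. The p-values thus rest on the scatter of these libraries, part of which may be technical. In bulk RNA, fewer cells of a type and less RNA per cell cannot be told apart.

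Libraries were made with a targeted human panel of 18961 amplicons, most of which stand for 1 gene each, and 13100 amplicons (called genes here) passed the filter on low reads and were tested. Levels are CPM (recovered reads of a gene scaled to a fixed library total) after TMM scaling, a scaling that equalises most genes between libraries. A difference is a difference of mean log2(CPM + 1), so that the change of genes near 0 is understated, and a gene was called at a Benjamini-Hochberg adjusted p under 0.05 in limma. The HuH7 tumours held 8566344, 8592746, 7644164 and 8568475 recovered reads. A floor of 3 reads is 0.349 to 0.392 CPM in these libraries before TMM scaling, and values below it are counting noise.

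Hepatocytes secrete most plasma proteins, and fetal hepatocytes also secrete alpha-fetoprotein, which many liver cancers make. Cholesterol synthesis is switched on by SREBP2 when cells lack sterols. Nodal is a TGF-beta family ligand that acts through SMAD2 and SMAD3, and LEFTY1, LEFTY2 and CER1 are secreted proteins that block it. YAP acts with TEAD proteins in the nucleus of cells that are stretched or sparse, and switches on CTGF, CYR61 and ANKRD1.

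The amplicons of 4 genes on which the results turn show what was read. All lie in coding sequence, matched to GENCODE transcripts on GRCh38. CER1 (chr9:14720120-14720263, minus strand, exon 2) and SCTR (chr2:119464128-119464244, minus strand, exon 6) each lie within 1 exon. COL1A1 (chr17:50189274-50189504, minus strand, exons 39 to 40) and SNURF (chr15:24962114-24967961, plus strand, exons 2 to 3) span 2 exons. Capitals mark the last base of 1 exon and the first of the next. The SNURF amplicon also matches SNRPN and AC124312.1. The amplicons of LEFTY1 and LEFTY2 each match the other gene at all but 1 and 2 positions, so reads could be split between these genes.
CER1: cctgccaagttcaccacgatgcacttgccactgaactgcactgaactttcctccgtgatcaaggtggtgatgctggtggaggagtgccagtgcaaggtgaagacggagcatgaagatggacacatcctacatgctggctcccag
SCTR: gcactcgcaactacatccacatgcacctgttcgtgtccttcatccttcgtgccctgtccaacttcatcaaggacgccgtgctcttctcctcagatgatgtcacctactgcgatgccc
COL1A1: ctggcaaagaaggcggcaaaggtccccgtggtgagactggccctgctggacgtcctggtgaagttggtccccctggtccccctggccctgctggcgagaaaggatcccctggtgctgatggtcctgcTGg
SNURF: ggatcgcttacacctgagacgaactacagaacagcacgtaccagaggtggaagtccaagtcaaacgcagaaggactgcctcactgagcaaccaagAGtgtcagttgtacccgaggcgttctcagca

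The libraries differed in ways the groups do not set. HuH7 tumours 3 and 4 were the least alike of their group (Pearson r = 0.8712 across genes), and each HuH7 tumour was closer to another HuH7 tumour (r of at least 0.9477) than to any tumour of another line (r of at most 0.86). The tumours numbered 3 of the 4 lines deviated together from their group means (r = 0.1168 to 0.8618 across genes, 6 pairs). Some tumours of unlike number did so as well, up to r = 0.7938 for HepG2 tumour 1 and HuH7 tumour 4. Olfactory receptor amplicons, 392 in number, serve here as a measure of stray reads, and 20.9% to 31.4% of them had reads in HuH7 tumours. The range was 5.87% to 7.91% in HuH7 cultures and 5.61% to 51.8% in the other tumours. Genes of another line also appeared at low levels: PLC/PRF/5 tumours held a median of 0.903% to 1.63% of the HepG2 tumour level of 11 genes that PLC/PRF/5 lacks in culture, and Hep3B tumours 0.324% to 1.39% of the HuH7 tumour level of 3 genes. HuH7 tumours held 0.111% or less of other lines by this measure. The source of these reads was not tested.

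The first question was how many genes set HuH7 tumours apart, and how many of these did so in culture. In tumours, 3369 genes (25.7% of those tested) were higher and 2864 (21.9%) lower in HuH7, and the median difference of all genes was -0.03. Of these, 2411 (18.4%) and 1596 (12.2%) differed by at least 2-fold. In 1127 and 459 genes (8.6% and 3.5%) the 4 HuH7 tumours lay wholly above or wholly below the other 12, and without the tumours numbered 3 these counts were 1770 and 902. With scaling by total counts 247 genes lay wholly below. In cultures, 4942 genes (37.7%) were higher and 4741 (36.2%) lower in HuH7, of which 1862 (14.2%) and 1402 (10.7%) differed by at least 2-fold. With scaling by total counts alone, 66.5% of the calls in tumours were higher, against 54.1% after TMM scaling, and the median of all genes moved up by 0.19.

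Most differences were found in both settings. There were 2740 genes (20.9%) called higher and 2379 (18.2%) called lower in tumours and in cultures. The difference itself changed between settings in 1548 genes (11.8%) that stood higher and 1003 (7.66%) that stood lower in tumours than cultures would give, and with total counts alone 76.8% of such calls were higher, against 60.7%. Changes of at least 2-fold numbered 1115 (8.51%) and 589 (4.5%). A stricter class held differences absent in culture: called in tumours with at least 2-fold, under 0.5 on the log2 scale in culture, and called for the change. It held 376 genes (2.87%) higher and 153 (1.17%) lower in HuH7 tumours. The higher count was 200 with edgeR, 233 with limma-voom, 244 with DESeq2 and 236 with a stricter filter, and the lower count was 77 with scaling by total counts and 230 with the GC trend removed. Differences called in opposite directions numbered 188 (1.44%) higher and 148 (1.13%) lower in HuH7 tumours, and 61 genes (0.466%) met both definitions. With scaling by total counts the numbers reversed were 288 and 96. The counts of list members given below are to be read against the shares of all genes, 25.7% higher and 21.9% lower in tumours and 37.7% and 36.2% in cultures.

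**Figure D1:**
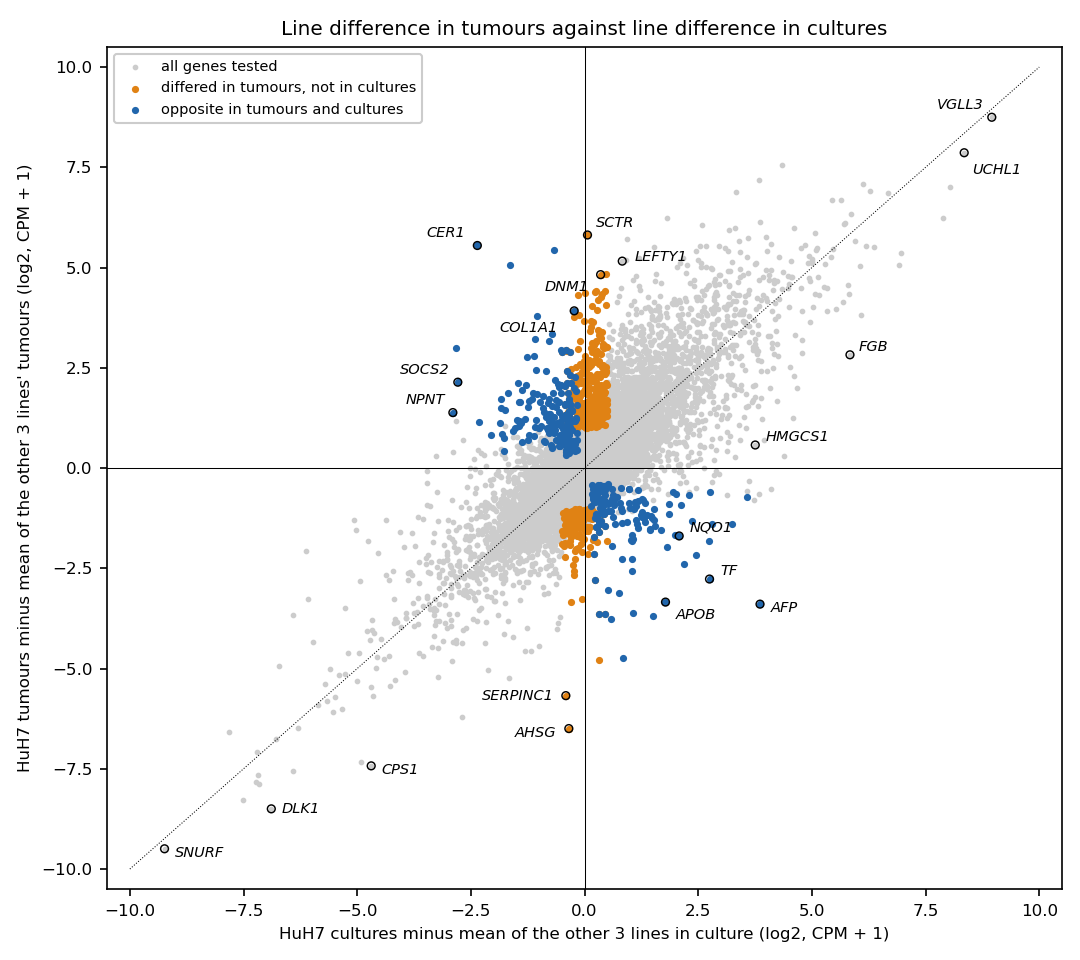
Each point is 1 of 13100 genes, with the difference between HuH7 and the other 3 lines in cultures on the horizontal axis and in tumours on the vertical axis, both on the log2(CPM + 1) scale, and the dotted line marks equal differences. Orange points are differences absent in culture (376 higher, 153 lower), blue points are differences of opposite sign (188 higher, 148 lower), and genes that meet both definitions are drawn in blue.

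The genes named first had the largest tumour differences among genes whose 4 HuH7 tumours did not overlap the other 12. That separation was thus set by the choice. Most of these genes were line features that cultures shared. VGLL3, a cofactor of TEAD proteins, stood at 14101, 8952, 5523 and 8412 CPM in the HuH7 tumours, against 0.3 to 1.43 in HepG2, 5.63 to 139 in Hep3B and 100 to 115 CPM in PLC/PRF/5 tumours. All 4 HuH7 tumours lay above the other 12, and the log2 difference was 8.75 in tumours (adjusted p = 1.05e-09) and 8.96 in cultures (adjusted p = 1.72e-17). UCHL1, a ubiquitin hydrolase best known from neurons, had 743, 747, 1940 and 611 CPM in HuH7 tumours, against at most 39.8 CPM in any other tumour. KCNJ16, a potassium channel, ADAMTS12, a secreted metalloprotease, and COL14A1, a collagen on the surface of fibrils, differed by 7.08, 6.91 and 7.02 in tumours and by 6.13, 6.28 and 8.05 in cultures. The change between settings passed the test in none of these 5, although with the reads of other lines subtracted it did for VGLL3 (1.95, adjusted p = 7.81e-07), and with DESeq2 for KCNJ16 (-2.79, adjusted p = 0.0376).

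Among the 8 genes chosen in this way for the largest rise were 3 whose difference was larger in tumours than in cultures. CCDC80, a secreted matrix protein, had 816, 1050, 624 and 894 CPM in HuH7 tumours, against at most 45.4 CPM in any other tumour, and 135 to 145 CPM in HuH7 cultures. Its difference was 7.57 in tumours and 4.35 in cultures. DPYSL3, a cytoskeletal protein of growing axons, had 328, 582, 182 and 432 CPM in HuH7 tumours against at most 24.6 CPM elsewhere, with 16.2 to 17.8 CPM in HuH7 cultures. LYPD6B, of the Ly6 family, differed by 6.88 in tumours and 3.34 in cultures, where Hep3B (31.8 to 34.4 CPM) was as high as HuH7 (31.4 to 32.2 CPM).

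The genes furthest below the other tumours, chosen in the same way, were at or near 0 in HuH7 in both settings. SNURF and SNRPN, which share an imprinted transcript made from the paternal allele, gave at most 0.511 and 0.17 CPM in the HuH7 tumours. The other 12 tumours gave 196 to 3176 CPM of SNURF, and HuH7 cultures gave 0 to 0.2 CPM. DLK1, an imprinted surface protein of hepatoblasts, had 2.06, 1.5, 1.89 and 1.87 CPM in HuH7 tumours, against 2154 to 4790 in HepG2, 11301 to 26132 in Hep3B and 16.5 to 32.2 CPM in PLC/PRF/5 tumours. All 4 HuH7 tumours lay below the other 12 (difference -8.50, adjusted p = 3.17e-13). In culture PLC/PRF/5 was as low as HuH7 (0.291 to 0.819 CPM against 0.217 to 0.5 CPM). The part of the HepG2 reads given above in the PLC/PRF/5 tumour level was not tested.

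CANT1, a nucleotidase, and NT5DC2 were also near 0 in HuH7, with at most 0.322 and 0.172 CPM in HuH7 tumours and at least 125 and 73.7 CPM in every other tumour. For these genes the log2 difference depends on the added 1 CPM and is no bound. APOH, a plasma phospholipid-binding protein, had at most 1.36 CPM in HuH7 tumours, against 1315 to 3612 in HepG2 and 11.3 to 22.5 CPM in PLC/PRF/5 tumours. As for DLK1, the part of the HepG2 reads in that PLC/PRF/5 tumour level was not tested. CPS1, the first enzyme of the urea cycle, had 0.426 to 1.37 CPM in HuH7 tumours, with 1778 to 2130 CPM in PLC/PRF/5 tumours at the other end.

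**Figure D2:**
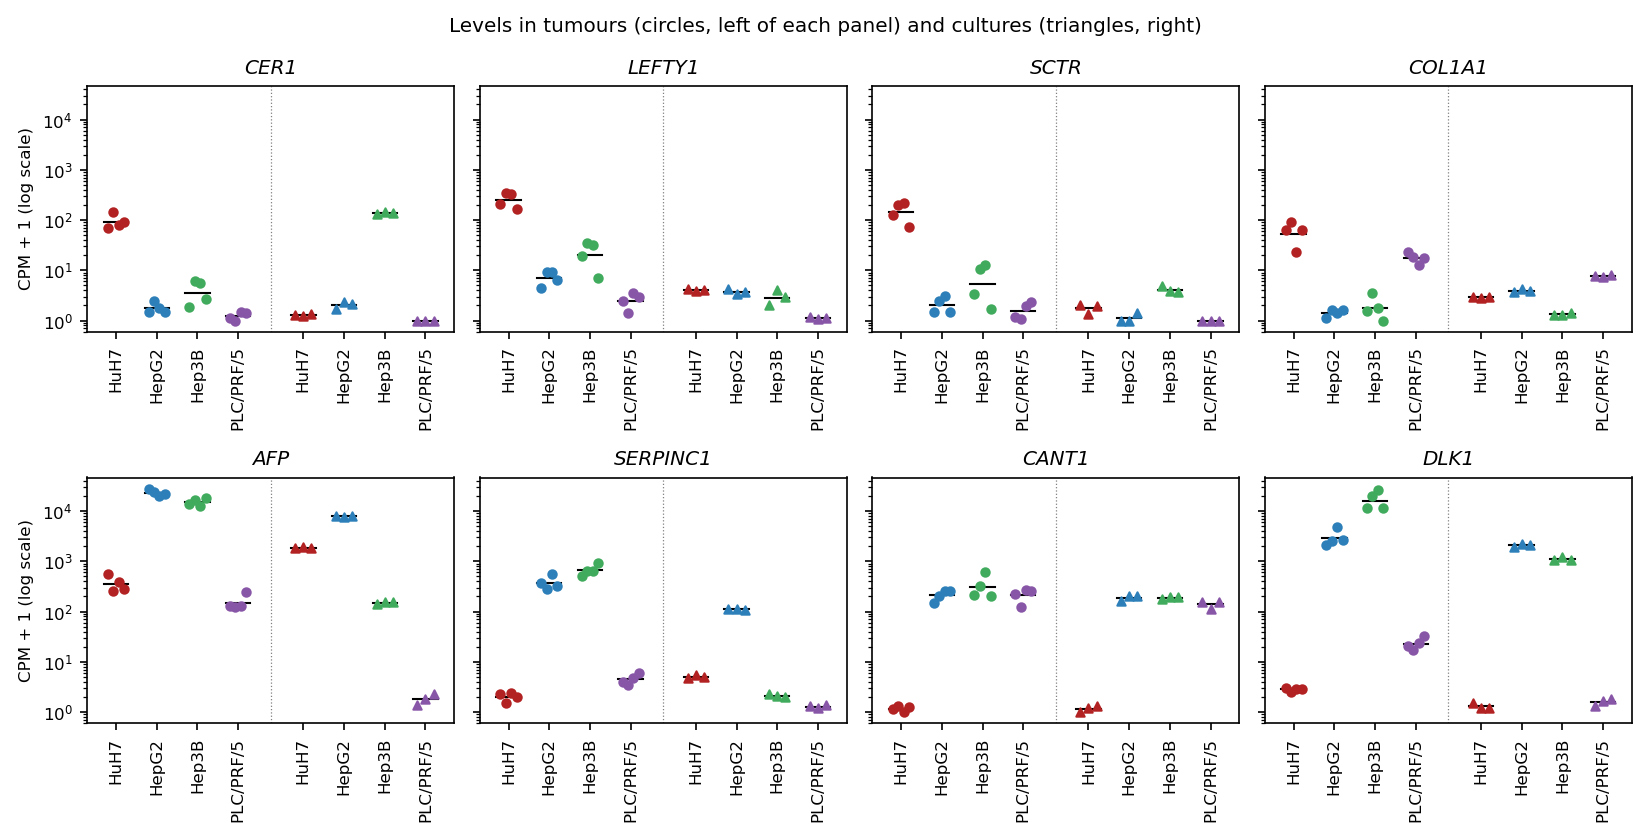
Levels of 8 genes in each library, as CPM + 1 on a log axis, with tumours as circles (4 per line) and cultures as triangles (3 per line), HuH7 first in each set, and a black bar at the mean of log2(CPM + 1). CER1, LEFTY1, SCTR and COL1A1 stand high in all 4 HuH7 tumours and low in HuH7 cultures, AFP and SERPINC1 stand below HepG2 and Hep3B tumours, and CANT1 and DLK1 are near 0 in HuH7 in both settings.

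Of the 3 antagonists of Nodal, CER1 was reversed and LEFTY1 and LEFTY2 were not. CER1 had 69.1, 142, 80.5 and 89.7 CPM in HuH7 tumours, against 0.45 to 1.45 in HepG2, 0.848 to 5.13 in Hep3B and 0 to 0.453 CPM in PLC/PRF/5 tumours. HuH7 cultures had 0.217 to 0.327 CPM, whereas Hep3B cultures had 134, 143 and 138 CPM. CER1 was thus read almost only in Hep3B in culture and almost only in HuH7 in tumours. The difference was 5.55 ± 0.30 (SE) in tumours (adjusted p = 2.7e-10) and -2.36 ± 0.10 in cultures (adjusted p = 8.31e-11), and the change between settings was 7.91 (adjusted p = 1.45e-13). The culture difference rests on Hep3B, since HepG2 cultures had 0.701 to 1.35 CPM and PLC/PRF/5 cultures 0 CPM.

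LEFTY1 had 210, 341, 325 and 163 CPM in HuH7 tumours, against 3.45 to 8.24 in HepG2, 6.1 to 33.9 in Hep3B and 0.418 to 2.61 CPM in PLC/PRF/5 tumours. LEFTY2 had 29.3, 57, 24.9 and 32 CPM in HuH7 tumours, against at most 2.57 CPM in any other tumour. Both stood clear of all other tumours, while HuH7 cultures had 2.93 to 3.3 CPM of LEFTY1 and 0.1 to 0.109 CPM of LEFTY2. The change between settings was 4.33 for LEFTY1 (adjusted p = 1.96e-07) and 4.47 for LEFTY2 (adjusted p = 8.94e-10), although near-identical amplicons mean that the 2 genes are not independent readings.

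Of the 16 tested genes of Nodal signalling, 7 were higher and 3 lower in HuH7 tumours, against 25.7% and 21.9% of all genes, and 8 were higher and 6 lower in HuH7 cultures. Nodal itself did not pass the filter, with 0 CPM in every HuH7 tumour and at most 0.269 CPM in any tumour. SMAD3, a transcription factor downstream of Nodal and TGF-beta, had 404, 393, 346 and 262 CPM in HuH7 tumours, against 68.2 to 208 CPM in the others, with no overlap. Its difference was 1.52 in tumours and 0.22 in cultures (change 1.30, adjusted p = 0.00165). FURIN, a protease that matures TGF-beta family ligands, was higher in both settings, by 2.95 and 2.22.

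Most tested targets of TGF-beta and YAP were higher in HuH7 in both settings. Of 20 tested genes, 15 were higher and 2 lower in HuH7 tumours, with a median difference of 2.21 against -0.03 for all genes. In cultures 15 were higher and 5 lower, with a median of 0.86. The change between settings was called upward in 11 and downward in 0. ANKRD1, a nuclear target of YAP, had 101, 93.6, 117 and 98.9 CPM in HuH7 tumours, against at most 3.47 CPM in any other tumour. CTGF, a secreted matricellular protein, had 1383, 991, 1948 and 678 CPM, against 182 to 479 in HepG2, 17.1 to 46.2 in Hep3B and 7.19 to 12.6 CPM in PLC/PRF/5 tumours. Both lay wholly above the other tumours, with differences of 5.74 and 4.72 in tumours and 3.60 and 2.86 in cultures.

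CTGF was lower in tumours than in cultures in all 4 lines, by -0.82 in HuH7 and by -1.97, -3.75 and -2.31 in HepG2, Hep3B and PLC/PRF/5 on the log2 scale, and HuH7 cultures had 2017 to 2068 CPM. ANKRD1 had 152 to 154 CPM in HuH7 cultures and 37.5 to 43.4 CPM in HepG2 and Hep3B cultures, which had 0 to 3.47 CPM as tumours. TGFB2, a ligand of the pathway, had 50.3, 98.3, 32.3 and 92.5 CPM in HuH7 tumours, against at most 3.59 CPM elsewhere. LTBP1, which holds latent TGF-beta in the matrix, was different: 145, 128, 137 and 117 CPM in HuH7 tumours, against at most 31.9 CPM in any other tumour, but 11.2 to 13.2 CPM in HuH7 cultures. LTBP1 thus belongs to the differences absent in culture (4.07 in tumours and 0.48 in cultures).

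Several other receptors and matrix genes set HuH7 apart in tumours and hardly at all in culture. SCTR, the secretin receptor, which the liver has on bile duct cells, had 127, 202, 216 and 71.3 CPM in HuH7 tumours, against at most 11.8 CPM in any other tumour and 0.326 to 1 CPM in HuH7 cultures. Its difference was 5.81 ± 0.46 (SE) in tumours (adjusted p = 2.17e-08) and 0.06 ± 0.14 in cultures (adjusted p = 0.701). NOTCH3, a receptor of the Notch pathway, had 170, 243, 93.2 and 141 CPM in HuH7 tumours, against at most 38.2 CPM in the other tumours. HuH7 cultures had 6.75 to 7.6 CPM of NOTCH3, below Hep3B cultures (33 to 39 CPM). DNM1, a dynamin of neurons, AFAP1L2, an actin-linked adaptor, and SPIB, an ETS factor of lymphoid cells, had 71.4 to 108, 38.7 to 70.6 and 99.9 to 112 CPM in HuH7 tumours and under 3 CPM in HuH7 cultures.

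COL1A1, the main chain of type I collagen, had 61.6, 90.7, 22 and 62.2 CPM in HuH7 tumours, against 0.15 to 0.646 in HepG2, 0 to 2.57 in Hep3B and 11.7 to 21.7 CPM in PLC/PRF/5 tumours. The lowest HuH7 tumour stood just above the highest PLC/PRF/5 tumour. The difference was 3.92 ± 0.34 (SE) in tumours (adjusted p = 6.5e-08) and -0.23 ± 0.09 in cultures (adjusted p = 0.0376), where it was 0.34 without PLC/PRF/5. COL4A4, a chain of basement membrane collagen, had 23.9, 45.8, 23.9 and 35.2 CPM in HuH7 tumours, against at most 9.86 CPM elsewhere. Since COL1A1 is also a marker of fibroblasts, the other markers of that cell type are given here: of 12, ACTA2, THY1, POSTN and FAP were at 0 CPM in all 4 HuH7 tumours and 7 were under 1 CPM in each. The summed level of the 12 was 567 to 878 CPM in HuH7 tumours and 358 to 376 CPM in HuH7 cultures, and most of it was PDGFRA (444, 730, 715 and 472 CPM in tumours and 150 to 162 CPM in cultures), whose amplicon also matches AC058822.1. LUM and RGS5 were the other 2 at 10 CPM or more in all 4 HuH7 tumours, with 10.1 to 39.3 and 13.3 to 16 CPM, against 193 to 202 and 8.28 to 9 CPM in HuH7 cultures. Of the 9 markers tested, 5 were higher and 3 lower in HuH7 tumours (median 2.49), and 4 and 5 in HuH7 cultures (median -0.23), with 4 upward changes between settings and 1 downward. The part of such cells in the COL1A1 result was not tested.

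Basement membrane genes were mixed. Of 22 tested, 10 were higher and 5 lower in HuH7 tumours (median 1.07), and 11 were higher and 9 lower in HuH7 cultures (median 0.24). NPNT, a ligand of integrin alpha 8, reversed: it had 549, 620, 1635 and 560 CPM in HuH7 tumours, overlapping with HepG2 (120 to 567 CPM) and PLC/PRF/5 tumours (282 to 701 CPM), and 7.6 to 8.28 CPM in HuH7 cultures, below all 9 other cultures (23.4 to 324 CPM). COL18A1, a basement membrane collagen, varied widely among HuH7 tumours, with 1227, 346, 5318 and 170 CPM, and its change between settings did not pass the test (adjusted p = 0.147).

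Of 22 tested genes of matrix remodelling, 11 were higher and 3 lower in HuH7 tumours, with 9 upward and 2 downward changes between settings. In cultures 7 were higher and 10 lower. SPARC, a collagen-binding secreted protein, had 352, 394, 577 and 290 CPM in HuH7 tumours, overlapping with HepG2 tumours (160 to 344 CPM), and 7.49 to 8.9 CPM in HuH7 cultures. LOXL2, a collagen cross-linking enzyme, and BMP1, a procollagen protease, differed by 2.89 and 1.99 in tumours and by -0.50 and -0.24 in cultures. TIMP1, an inhibitor of metalloproteases, reversed, with 325, 362, 603 and 201 CPM in HuH7 tumours. That was above HepG2 and Hep3B tumours (19.7 to 70.6 CPM) and below PLC/PRF/5 tumours (710 to 1280 CPM). Of 13 integrins, 7 were higher and 2 lower in HuH7 tumours (25.7% and 21.9% over all genes), among them ITGB8, which activates latent TGF-beta, with 93.9 to 163 CPM in HuH7 tumours and 4.34 to 6.97 CPM in HuH7 cultures.

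Other genes outside these lists were also reversed toward higher levels in HuH7 tumours. SOCS2, an inhibitor of cytokine receptors, had 26.8, 48.5, 71.9 and 22.1 CPM in HuH7 tumours, at the level of PLC/PRF/5 tumours (37.5 to 52.2 CPM) and above the other 2 lines. All 3 HuH7 cultures (1.09 to 1.74 CPM) lay below the other 9 (8.14 to 47 CPM). ABCC3, an exporter of bile acid conjugates, and ADGRG1, an adhesion receptor, were higher in HuH7 tumours by 1.86 and 1.73, against -1.69 and -1.83 in cultures. In tumours, ABCC3 differed by 5.18 against HepG2, 0.76 against Hep3B and -0.35 against PLC/PRF/5. For ADGRG1 these differences were 2.79, 2.03 and 0.37. BGN and SERPINE2, a matrix proteoglycan and a protease inhibitor, reversed too, although Hep3B tumours had more BGN (667 to 3775 CPM) and PLC/PRF/5 tumours more SERPINE2 (177 to 421 CPM) than HuH7 tumours (40.2 to 194 and 49.1 to 134 CPM).

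More secreted liver proteins were lower than higher in HuH7 tumours. Of 24 tested, 13 were lower and 5 higher in HuH7 tumours, with a median difference of -1.86, and 5 were lower and 18 higher in HuH7 cultures, with a median of 1.61. The change between settings was downward in 21 and upward in 0. The higher calls in culture rest on PLC/PRF/5, whose cultures read most of these genes near 0: without that line, 9 were higher and 13 lower in HuH7 cultures, and 1 was higher and 20 lower in HuH7 tumours. The downward change stays at 21 of 24 without it. With the share of other lines subtracted 12 were lower in HuH7 tumours, and with the 20 most abundant genes left out, which removes members, 7 were. With that share subtracted the downward change was called in 21. PLC/PRF/5 tumours stood above PLC/PRF/5 cultures by 6.35 for AFP, 7.17 for APOA1, 5.68 for APOB and 0.19 for ALB on the log2 scale. The part of the HepG2 reads given above in the PLC/PRF/5 tumour levels of these and the other secreted proteins below was not tested.

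AFP, alpha-fetoprotein, had 570, 258, 382 and 282 CPM in HuH7 tumours, against 19728 to 27914 in HepG2, 12720 to 18053 in Hep3B and 120 to 239 CPM in PLC/PRF/5 tumours. In cultures HuH7 had 1852, 1886 and 1839 CPM, below HepG2 (7693 to 7919 CPM) and above Hep3B (141 to 154 CPM). Against Hep3B alone the difference was -5.42 in tumours and 3.64 in cultures, so this reversal does not rest on PLC/PRF/5. Against HepG2 alone it was -6.04 in tumours and -2.07 in cultures. The difference to the mean of the 3 lines was -3.39 ± 0.25 (SE) in tumours (adjusted p = 8.12e-09) and 3.86 ± 0.10 in cultures (adjusted p = 3.72e-13).

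TF, transferrin, had 2030, 1082, 1995 and 856 CPM in HuH7 tumours, against 34040 to 60926 in HepG2, 53821 to 103057 in Hep3B and 173 to 456 CPM in PLC/PRF/5 tumours. APOB, the core protein of very low density lipoprotein, had 731, 206, 368 and 229 CPM in HuH7 tumours, against 16229 to 28610 CPM in HepG2 and Hep3B tumours. Every HuH7 tumour was below HepG2 and Hep3B and above PLC/PRF/5 for both genes. In cultures HuH7 was also below HepG2 and Hep3B, by -1.49 and -0.83 for TF and by -3.12 and -1.73 for APOB, so that only PLC/PRF/5 gave the positive sign. The gap to those 2 lines was wider in tumours, at -4.97 and -5.78 for TF and -5.88 and -5.80 for APOB.

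APOC3, a regulator of triglyceride clearance, and RBP4, the carrier of retinol, did turn round against HepG2 and Hep3B as well. APOC3 had 26.9, 27, 16.3 and 17.2 CPM in HuH7 tumours, against 299 to 600 CPM in HepG2 and Hep3B tumours, and 96.2 to 107 CPM in HuH7 cultures, against 62.1 to 84.5 CPM in HepG2 and Hep3B cultures. RBP4 had 247, 153, 236 and 164 CPM in HuH7 tumours, against 753 to 2475 CPM in HepG2 and Hep3B tumours. HuH7 cultures had 2835 to 3084 CPM, above the 1597 to 1897 CPM of HepG2 and Hep3B cultures. For RBP4 the difference to the mean of the 3 lines did not pass the test in tumours (-0.66, adjusted p = 0.0556), while the change between settings did (-4.49, adjusted p = 3.22e-10).

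SERPINC1, antithrombin, was among the lower genes absent in culture. It had 1.29, 0.537, 1.37 and 1.02 CPM in HuH7 tumours, against 276 to 563 in HepG2, 512 to 942 in Hep3B and 2.51 to 4.98 CPM in PLC/PRF/5 tumours. HuH7 cultures had 3.7 to 4.56 CPM, HepG2 cultures 106 to 113 CPM and Hep3B cultures 0.995 to 1.31 CPM, so the wide gap to Hep3B was seen in tumours only. AHSG, fetuin-A, had 27.8, 8.69, 10.8 and 15.5 CPM in HuH7 tumours and 286 CPM in each HuH7 culture, with 2251 to 26344 CPM in HepG2 and Hep3B tumours. APOA1 and APOA2, proteins of high density lipoprotein, differed by -3.65 and -4.73 in tumours, and PGLYRP2, a secreted peptidoglycan amidase, by -4.78.

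Not all secreted proteins were lower. FGB, a fibrinogen chain, had 1334, 1504, 759 and 1459 CPM in HuH7 tumours, near HepG2 (1584 to 1851 CPM) and above Hep3B (140 to 249 CPM) and PLC/PRF/5 (10.2 to 25.6 CPM). Its difference was 2.82 in tumours and 5.84 in cultures, smaller in tumours but not lost. AMBP, HPX, VTN and FGA were the other 4 called higher in HuH7 tumours, and without PLC/PRF/5 the differences of AMBP and VTN were -0.98 and -0.44. The amplicon of ALB, albumin, was read at a low level in all libraries, with 5.02, 8.16, 0.858 and 19.2 CPM in HuH7 tumours and 54.7 to 60.6 CPM in HuH7 cultures. ALB did not pass the test in tumours (adjusted p = 0.412). Whether this amplicon reads the full level of ALB was not tested, so its CPM do not show how much albumin RNA the lines hold. TTR, transthyretin, differed by -1.55 in tumours and 1.43 in cultures, where it was -1.55 against HepG2, -0.25 against Hep3B and 6.11 against PLC/PRF/5.

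**Figure D3:**
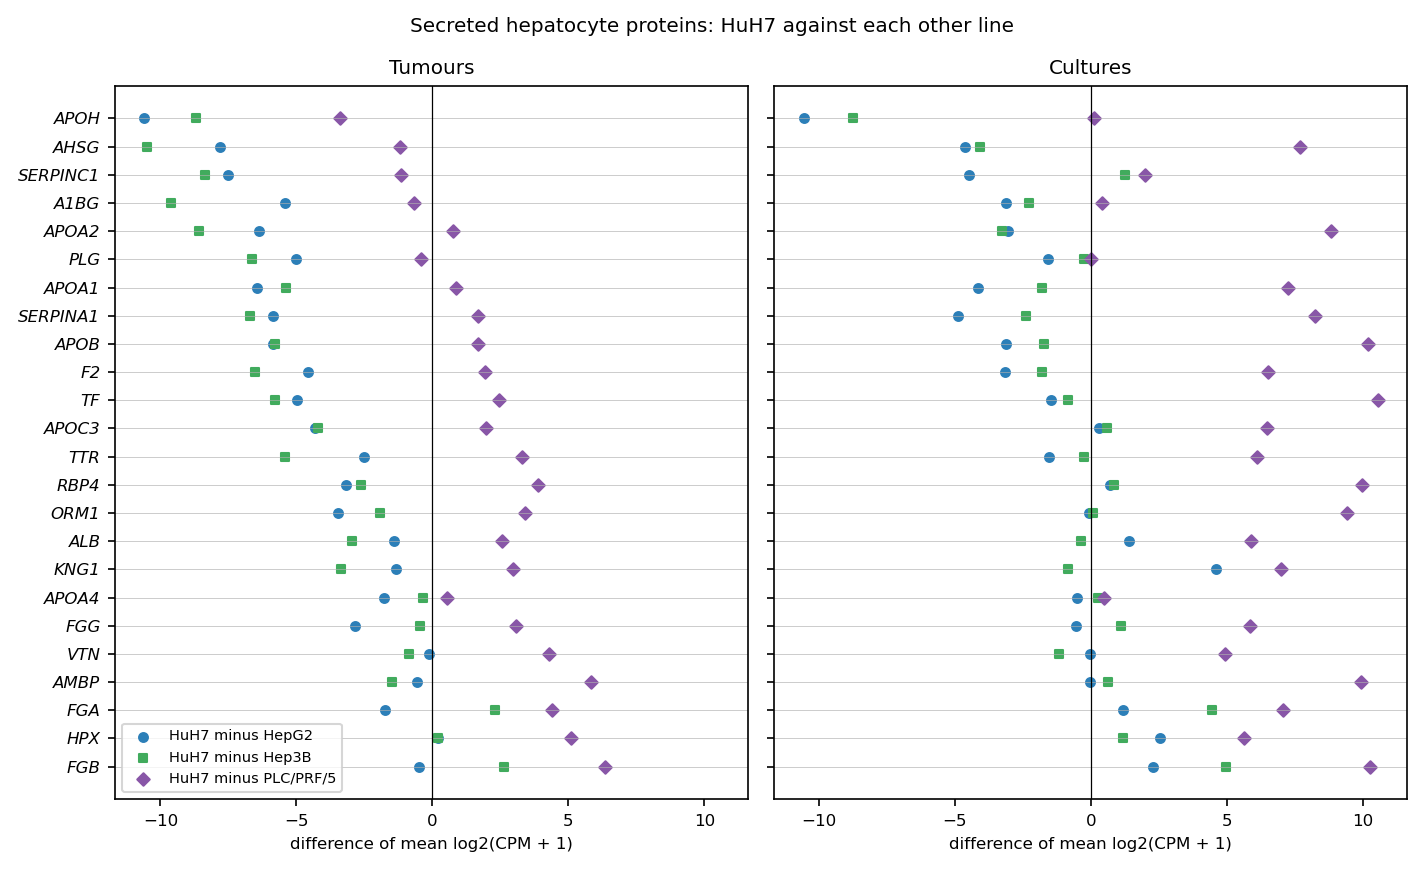
Difference of mean log2(CPM + 1) between HuH7 and each other line for 24 secreted liver proteins, in tumours (left) and cultures (right), with a symbol per line, ordered by the difference in tumours. In tumours most points for HepG2 and Hep3B lie left of 0, and in cultures most points for PLC/PRF/5 lie far to the right.

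Liver transcription factors were mixed. Of 20 tested, 7 were higher and 5 lower in HuH7 tumours (median 0.37), and 12 and 5 in cultures. ONECUT1, a factor of hepatoblasts and bile duct precursors, had 1329, 781, 2822 and 455 CPM in HuH7 tumours, overlapping with HepG2 (117 to 839 CPM) and Hep3B (289 to 776 CPM). NR5A2 was higher in both settings, by 4.01 and 4.49. HNF4A, which drives hepatocyte genes, had 845 to 1385 CPM in HuH7 tumours and 900 to 924 CPM in HuH7 cultures, and its difference in tumours was 0.39 (adjusted p = 0.3) and, without PLC/PRF/5, -0.94 (adjusted p = 0.00556).

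Over 16 tested oncofetal and stem cell genes, 5 were higher and 5 lower in HuH7 tumours (median -0.28). PROM1, a surface protein of progenitor cells, had 738, 536, 860 and 485 CPM in HuH7 tumours, against 40.2 to 69 in HepG2, 269 to 471 in Hep3B and 0.604 to 4.76 CPM in PLC/PRF/5 tumours, with no overlap. KRT19, a keratin of bile duct cells, had 2808, 1861, 4797 and 1120 CPM in HuH7 tumours, of which the lowest lay below the highest Hep3B tumour (1129 CPM). IGF2, a fetal growth factor, and GPC3, a fetal surface proteoglycan, did not pass the test in tumours (adjusted p = 0.712 and 0.312), with IGF2 at 31408, 26116, 4390 and 18536 CPM in HuH7 tumours, above PLC/PRF/5 (267 to 810 CPM) and below Hep3B (172624 to 359700 CPM). The difference of IGF2 was 2.62 with the share of other lines subtracted (adjusted p = 0.000135) and 1.61 without Hep3B (adjusted p = 0.0316), against -0.27 with neither change. That of GPC3 was 0.83 without HepG2 (adjusted p = 0.0401) and -2.55 without PLC/PRF/5 (adjusted p = 1.06e-05), against -0.37 with all lines.

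Most genes of cholesterol synthesis and uptake were lower in HuH7 tumours and higher in HuH7 cultures. Of 23 tested genes, 14 were lower and 1 higher in HuH7 tumours (median -1.03), whereas 0 were lower and 21 higher in HuH7 cultures (median 1.07). The change between settings was downward in 19 and upward in 0, and 12 genes met the definition of a reversal, against 1.13% of all genes. HSD17B7, a late enzyme, had 17.5, 12.6, 21.6 and 10 CPM in HuH7 tumours, below all 12 other tumours (33.6 to 92 CPM). HuH7 cultures had 54.1 to 58.7 CPM, at the top of the range of the other 9 (30.6 to 58.7 CPM). The difference was -1.71 ± 0.23 (SE) in tumours (adjusted p = 1.05e-05) and 0.21 ± 0.09 in cultures (adjusted p = 0.0406), where it was close to 0 without HepG2 (-0.00497).

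Other members differed more in cultures than in tumours. HMGCS1, an early enzyme, had 312, 109, 135 and 141 CPM in HuH7 tumours, of which tumour 1 lay above the other tumours (47.1 to 194 CPM) and 3 within their range, against 1539, 1557 and 1512 CPM in HuH7 cultures. Its difference was 3.75 in cultures (adjusted p = 2.28e-16) and 0.57 in tumours (adjusted p = 0.0928). INSIG1, the sterol-sensing brake of SREBP2, had 3.22, 1.93, 0.343 and 2.72 CPM in HuH7 tumours, against 0 in HepG2, 3.76 to 15.2 in Hep3B and 23.4 to 62 CPM in PLC/PRF/5 tumours. HuH7 cultures had 50 to 54.3 CPM, above all 9 other cultures (0 to 32.3 CPM). The difference of INSIG1 was -1.41 in tumours (0.11 with edgeR) and 2.80 in cultures.

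The count in tumours depended on the libraries used. It was 14 of 23 without the 4 tumours numbered 3 and 13 to 16 on leaving out 1 library, but 10 without Hep3B, 11 without PLC/PRF/5 or with scaling by total counts and 7 without HuH7 tumours 3 and 4. The downward change between settings was called in 17 to 21 of 23 genes under each of these.

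**Figure D4:**
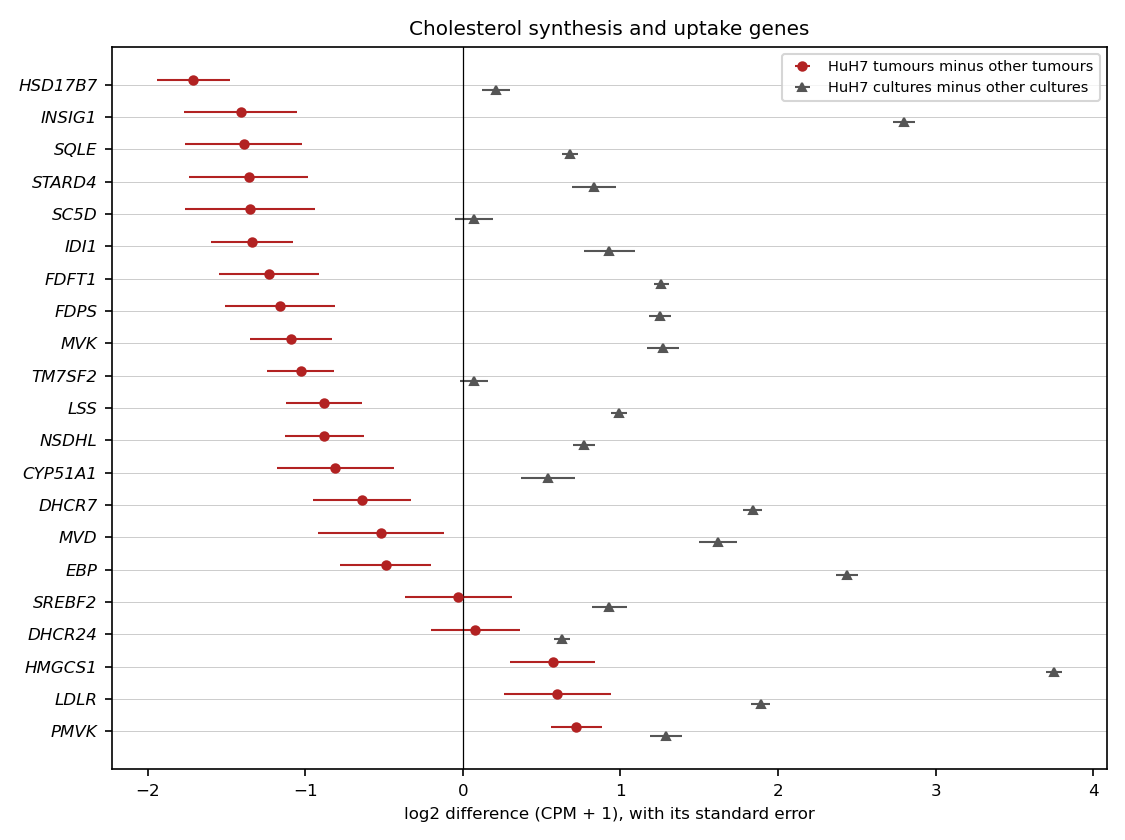
Log2 difference, with its standard error, between HuH7 and the mean of the other 3 lines for 21 of the 23 tested genes of cholesterol synthesis and uptake, in tumours (circles) and cultures (triangles). SC5D and TM7SF2, which did not pass the test in cultures, are included. The triangles lie right of 0 and most circles lie left of it.

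Of 18 tested genes of fatty acid synthesis and storage, 7 were lower and 1 higher in HuH7 tumours, and 2 were lower and 12 higher in HuH7 cultures. The definition of a reversal was met by 3. FASN, fatty acid synthase, had 4253, 1667, 1879 and 1145 CPM in HuH7 tumours, against 2257 to 15780 CPM in the others, and 12500 to 13172 CPM in HuH7 cultures, above the other 9 (4521 to 7967 CPM). PLIN2, which coats lipid droplets, was the 1 called higher in tumours (difference 1.04, adjusted p = 0.0422), and its difference was -1.37 without PLC/PRF/5. ACSL3, which activates fatty acids, and HADH, an enzyme of their oxidation, were lower in tumours by -1.48 and -1.57 and differed by 0.25 and 0.02 in cultures. CPT1A, the entry step of fatty acid oxidation, went the other way, with 161 to 207 CPM in HuH7 tumours, above all 12 other tumours (32.1 to 119 CPM), and a difference of 1.49.

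Of 17 tested genes that break down amino acids or make urea, 12 were lower and 4 higher in HuH7 tumours (median -1.33), and 8 and 8 in cultures. ARG1, the last enzyme of the urea cycle, had 1.54, 0.537, 1.72 and 0.851 CPM in HuH7 tumours and 10.9 to 13.4 CPM in HuH7 cultures, and the widest gap in tumours was to Hep3B (153 to 236 CPM). AGMAT, which breaks down agmatine, had 37.8, 29.5, 40.8 and 26 CPM in HuH7 tumours, below all 12 other tumours (51.6 to 556 CPM). HuH7 cultures had 117 to 125 CPM of AGMAT. Of 17 bile acid genes, 9 were lower and 5 higher in HuH7 tumours. FGF19, the gut hormone that restrains bile acid synthesis, had 38.5, 16, 42.6 and 9.88 CPM in HuH7 tumours, below Hep3B (46 to 71.3 CPM) and above HepG2 and PLC/PRF/5 (at most 1.45 CPM).

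NQO1, a quinone reductase switched on by NRF2, had 17.8, 8.37, 3.78 and 7.58 CPM in HuH7 tumours, against 33.3 to 92.5 in HepG2, 2.96 to 16.1 in Hep3B and 41.9 to 60.7 CPM in PLC/PRF/5 tumours. HuH7 cultures had 300 to 308 CPM, so NQO1 was lower in HuH7 tumours than in HuH7 cultures by -5.05 on the log2 scale, against -2.79, 0.46 and -1.50 in HepG2, Hep3B and PLC/PRF/5. Among 25 NRF2 targets, 11 were lower and 1 higher in HuH7 tumours, and 9 were lower and 12 higher in HuH7 cultures. The lower count in tumours was 6 with scaling by total counts, without HepG2 or without HuH7 tumours 3 and 4. It was also 6 with the share of other lines subtracted, and 15 with 1 fit over all libraries. Of 22 hypoxia targets, 8 were lower and 5 higher, against 21.9% and 25.7% of all genes, and 4 were lower without PLC/PRF/5. CA9, carbonic anhydrase 9, had at most 2.83 CPM in HuH7 tumours against 238 to 470 CPM in PLC/PRF/5, and EPO, erythropoietin, 1.19 to 7.21 CPM against 114 to 191 CPM in HepG2 and Hep3B tumours. CXCR4, a chemokine receptor also induced by low oxygen, was higher, with 206, 185, 229 and 104 CPM in HuH7 tumours, all above the other 12 (0.235 to 99.8 CPM). Of 21 genes of glucose uptake and glycolysis, 9 were lower and 1, PFKFB3, a regulator of glycolysis, higher in HuH7 tumours. Without PLC/PRF/5, 1 was lower and 3 were higher in HuH7 tumours, against 12 and 1 without HepG2 and 15 and 1 without Hep3B. In HuH7 cultures 11 were lower and 3 higher.

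More antigen presentation and interferon genes were lower than higher in both settings. Of 13 tested class I genes, 9 were lower and 0 higher in HuH7 tumours (median -1.54), and 12 and 0 in cultures. TAP2, a peptide transporter, had 2.44, 3.33, 2.23 and 1.96 CPM in HuH7 tumours, below all 12 other tumours (11.5 to 157 CPM), and HLA-E had 10.6 to 36.7 CPM against 92.8 to 396 CPM. The B2M amplicon was read at no more than 3.33 CPM in any library and says nothing of that gene. Of 23 interferon genes, 12 were lower and 3 higher in HuH7 tumours, and 19 were lower in cultures. BST2, an antiviral membrane protein, had at most 0.596 CPM in HuH7 tumours, against 4.56 to 615 CPM in the others.

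Growth control was mixed. Of 25 mitosis genes, 3 were higher and 3 lower in HuH7 tumours, against 14 higher and 3 lower in cultures. The culture counts depended on the lines: 4 higher and 13 lower without HepG2, 18 and 2 without Hep3B, and 21 and 0 without PLC/PRF/5. MKI67, the proliferation marker, had 59.4, 84.5, 9.27 and 150 CPM in HuH7 tumours and did not pass the test (adjusted p = 0.528). The tumours numbered 3 had the lowest MKI67 in HuH7, HepG2, Hep3B and PLC/PRF/5. Of 26 DNA replication genes, 8 were lower and 1 higher in HuH7 tumours, against 3 lower and 17 higher in cultures. The change between settings was downward in 13 and upward in 0. The downward count was 3 without HepG2, 17 without Hep3B and 12 without PLC/PRF/5. TYMS, thymidylate synthase, had 67.5 to 85.1 CPM in HuH7 tumours, below all 12 other tumours (125 to 755 CPM). MYC, with 20.4 to 25.3 CPM in HuH7 tumours, and TGFA, an EGF receptor ligand, with at most 0.537 CPM, were lower in both settings. PDGFB, a ligand for mural cells, had 503, 432, 997 and 224 CPM in HuH7 tumours, all above the other 12 (12.1 to 116 CPM), and PDGFRA was higher by 5.85 in tumours and 5.07 in cultures.

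All 4 lines are liver lines, so hepatoma markers bear on liver origin and not on which line a tumour is. Of 12, 10 were at least 10 CPM in all 4 HuH7 tumours. Their sum was 11065 to 16767 CPM in HuH7 tumours, below HepG2 (154407 to 271741) and Hep3B (179415 to 329800) and above PLC/PRF/5 (4290 to 10817 CPM). Human markers of other cells were few. The amplicons are human and the membrane is chick, and whether chick RNA is read was not tested. Low values thus do not show that host cells were absent. KDR and EMCN, which define endothelium, were at 0 CPM in all 16 tumours, and the endothelial sum of 188 to 667 CPM in HuH7 tumours was nearly all EGFL7 (626, 353, 649 and 178 CPM), which HuH7 cultures also had (104 to 143 CPM). The 12 leukocyte markers summed to 10.3 to 14.1 CPM in HuH7 tumours, against 39.6 to 44.2 CPM in HuH7 cultures.

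**Figure D5:**
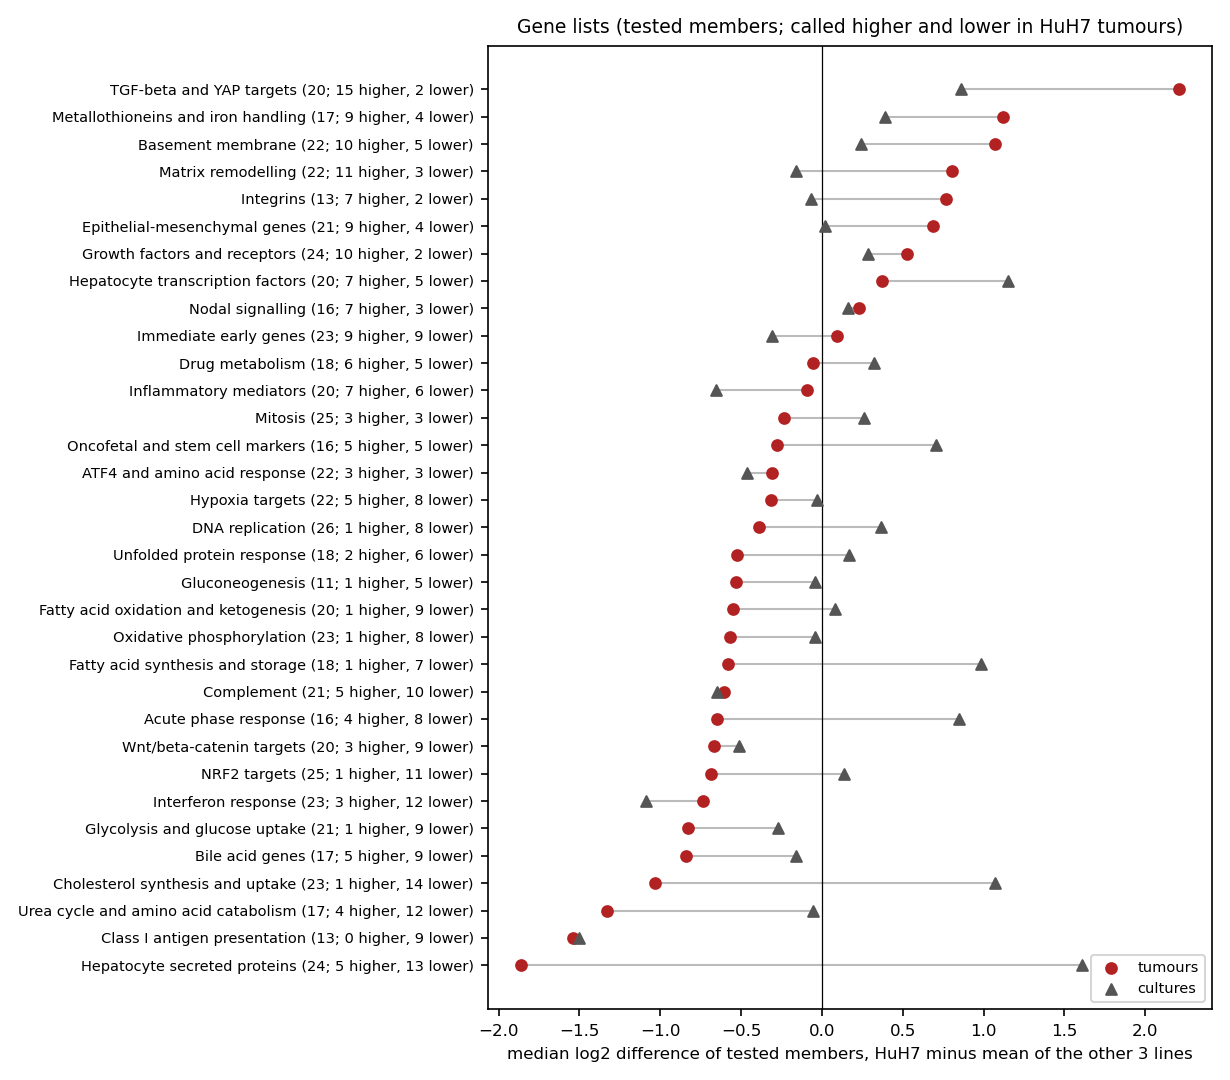
Median log2 difference between HuH7 and the mean of the other 3 lines over the tested members of 33 gene lists, in tumours (circles) and cultures (triangles), with the number tested and the numbers called higher and lower in HuH7 tumours beside each name. TGF-beta and YAP targets have the highest median in tumours (2.21) and secreted liver proteins the lowest (-1.86), and cholesterol synthesis and uptake lies at -1.03 in tumours and 1.07 in cultures.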

How the data were processed

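Expression was read with a human amplicon panel in 16 tumours and 12 cultures, grouped by their labels. The deposited values are a signal scaled by the authors to the same total in every library; the build is hg38 per the submitters' processing notes, while aligner and counting: not given in the sources used here. Whole reads were recovered from the deposited signal (at least 99.968% of values within 0.01 of a whole number) and turned into CPM. One damaged cell (KRT18, PLC/PRF/5 tumour 2) was filled with what its library lacked to the fixed total. Genes were filtered with filterByExpr of edgeR 4.0.16 (minimum 10 reads; 5861 of 18961 left out), scaled by TMM and tested with limma 3.58.1 (trend) on log2(CPM + 1), in 16 tumours, in 12 cultures and, for the change between settings, in all 28 libraries, with Benjamini-Hochberg adjustment. limma-voom, edgeR quasi-likelihood and DESeq2 1.42.0 on recovered reads were alternatives. The tests were checked on simulated data. The named genes are those of largest difference in each class, a set of key genes and up to 3 per list. For the largest tumour differences and those absent in culture, only genes whose 4 HuH7 tumours did not overlap the other 12 were taken. Their lack of overlap was thus set by the choice and is no separate result. All but the key genes also needed a mean of at least 10 CPM over the 4 lines in tumours. AMBP, BMP1, FGA, FGB, HNF4A, HPX, LEFTY2, LOXL2, LUM, RBP4, RGS5, SC5D, SMAD3, TM7SF2 and VTN fall outside that rule and were chosen after their values were seen. The members and lists were chosen with earlier results of these data known. Results on some genes are not reported here. Counting floors cover counting error only.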

Additional observations from a re-analysis of the deposited data

Results flagged for a closer look

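Of 94 genes looked at, 3 had 1 HuH7 tumour that stood apart from the other 3 by its gap relative to the range of the group. Chance meets this rule in about 1 of 20 groups, so 3 of 94 is no more than chance would give. NPNT had 1635 CPM in HuH7 tumour 3. SNRPN and SNURF had 0.17 and 0.511 CPM in HuH7 tumour 4, where the other 3 were at 0 CPM, both close to the floor of 3 reads.

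For the genes below, the test of the change between tumours and cultures (limma, adjusted p under 0.05) passed, and the values are the tumour difference minus the culture difference on the log2 scale. Higher in tumours than in cultures were CER1 by 7.91, SCTR by 5.75, SOCS2 by 4.93, DNM1 by 4.47, AFAP1L2 by 4.37, LEFTY1 by 4.33, NPNT by 4.28 and COL1A1 by 4.15. SPIB followed at 3.94, NOTCH3 at 3.90, LTBP1 at 3.59, ADGRG1 at 3.56, ABCC3 and LYPD6B at 3.55, COL4A4 at 3.45, BGN and DPYSL3 at 3.35, CCDC80 at 3.22, SERPINE2 at 3.19 and TIMP1 at 3.10. Among the genes with a negative change, secreted proteins had -7.25 (AFP), -5.57 (APOA2), -5.52 (TF), -5.26 (SERPINC1), -5.12 (APOB), -5.11 (PGLYRP2), -4.63 (APOC3), -4.09 (APOA1), -2.98 (TTR), -2.91 (ALB) and -2.25 (EPO). Lipid genes had -3.18 (HMGCS1), -2.70 (FASN), -1.92 (HSD17B7), -1.73 (ACSL3) and -1.58 (HADH). The change was -4.58 for ARG1, -3.77 for NQO1, -2.73 for CPS1, -2.48 for GPC3, -2.43 for AGMAT, -1.86 for IGF2, -1.61 for DLK1 and -0.75 for SNRPN.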

How the results depend on the processing

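Leaving out 1 library at a time gave 2972 to 3544 genes higher and 2518 to 3227 lower in HuH7 tumours, 4575 to 4987 and 4445 to 4920 in cultures, and 1232 to 1741 and 711 to 1302 for the change between settings. It gave 327 to 437 and 126 to 197 differences absent in culture, 156 to 217 and 124 to 188 reversed, 2458 to 2889 and 2104 to 2617 kept, and 1129 to 1464 and 460 to 619 without overlap. Scaling by total counts gave 651 downward changes between settings, 77 lower genes absent in culture, 288 and 96 reversed and 247 lower without overlap. Higher genes absent in culture were 236 with a stricter filter, 200 with edgeR, 233 with limma-voom and 244 with DESeq2. edgeR also gave 856 upward changes and 1576 lower genes kept, 1 fit over all libraries 3071 higher and 2708 lower in cultures, and removal of the GC trend 230 lower genes absent in culture. Without the tumours numbered 3 there were 1759 downward changes, with 1770 higher and 902 lower without overlap. Without HuH7 tumours 3 and 4, an alternative chosen after seeing the data, 83 lower genes were reversed. Lower genes without overlap were 776 without HepG2, 1052 without Hep3B (1739 higher) and 911 without PLC/PRF/5. At 2-fold or more, 1596 genes were lower in tumours, 1862 higher and 1402 lower in cultures, 589 changed downward, 36 and 40 were reversed and 1370 and 916 kept. The causes were not tested.

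Signs turned most often on leaving out a line. Without PLC/PRF/5 the culture difference was -0.311 for ACSL3, -2.96 for APOA1, -3.16 for APOA2, -2.42 for APOB, 0.136 for BMP1, -0.461 for COL18A1, 0.344 for COL1A1, -0.235 for DNM1, -1.59 for GPC3, -0.139 for HNF4A, -2.32 for IGF2, 0.596 for LOXL2, -2.19 for PLIN2, -0.519 for PROM1, -0.02 for SMAD3, -0.954 for SPARC, -1.16 for TF, -0.902 for TTR and -0.6 for VTN. The tumour difference was then -0.985 for AMBP, -0.693 for BGN, -0.942 for HNF4A, -1.37 for PLIN2 and -0.44 for VTN, and the change between settings 1.07 for CA9. Without HepG2 the culture difference was 0.0663 for AGMAT, 1.78 for AHSG, -0.287 for HADH, -0.00497 for HSD17B7, -0.0897 for ITGB8, -0.553 for LTBP1, -0.377 for NOTCH3, -0.202 for PFKFB3 and 1.62 for SERPINC1, the tumour difference 0.834 for GPC3 and the change 0.00464 for TYMS. Without Hep3B it was 1.52 for AHSG, 0.352 for BGN, -0.317 for ITGB8 and -0.717 for SPARC in cultures, and 1.61 for IGF2 and 0.376 for TTR in tumours. By another tool, the culture difference was 0.227, 0.228 and 0.241 for AHSG, 0.0295, 0.000954 and 0.0392 for COL1A1 and 0.3, 0.238 and 0.323 for SERPINC1 with edgeR, limma-voom and DESeq2. edgeR gave 0.11 for INSIG1 in tumours, and DESeq2 gave -2.79 for the change of KCNJ16. An added 0.25 CPM gave 0.0277 for AHSG, and 5 CPM gave -0.177 for APOA1, -0.059 for ITGB8 and -0.484 for SPARC, in cultures. With the share of other lines subtracted, also chosen after seeing the data, IGF2 was 2.62 in tumours with a change of 1.02, and the change of VGLL3 was 1.95. Of 24 pairs of same-numbered tumours 15 correlated over 0.1 (-0.1985 to 0.8618, median 0.168), among them all 6 pairs numbered 3. Of 72 pairs of tumours of unlike number 29 did so too (-0.7945 to 0.7938). The numbers were therefore not taken to pair all tumours. A fit with the replicate block made 7124 calls in tumours, 6217 of them among the 6233 made without it. In the sample titles, only the tumours numbered 3 (letter D) and 4 (letter E) have the same letter in every line. Under the other numbers the pairs and the block join tumours of unlike letters. Depth limits genes under 0.392 CPM in HuH7 tumours.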
